A study of Rattus norvegicus with 6 samples.

Results

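Fibrinogen and 5 genes of the complement system were examined in the renal cortex of rats, the outer kidney layer that holds the glomeruli and most proximal tubules. The 8 genes were Fga, Fgb and Fgg, which encode the 3 chains of fibrinogen, and C1s, C3, Cfb, Cfi and Serping1. They were chosen by name, and their probes were found through the RefSeq transcript that each probe carries as its identifier. They are 8 of the 15645 gene symbols with a probe, and they had 14 of the 61537 probes other than controls, with 1 probe each for Fga, C3 and Cfi, 2 each for Fgb, Fgg, C1s and Cfb, and 3 for Serping1. The arrays came from 2 groups of 3 male Sprague-Dawley (Crl:CD(SD)) rats, obtained at 5 weeks of age and kept on a basal diet. The control group received corn oil for 4 weeks, and the other group received 500 mg/kg/day of chlorothalonil, a fungicide with a chlorinated ring and nitrile groups, over the same 4 weeks. Each array held the cortex RNA of 1 sample, and the series' design text calls the samples biological replicates.

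Fibrinogen is a plasma protein built from paired alpha, beta and gamma chains, and thrombin turns it into the fibrin of a clot. Complement is a cascade of plasma proteases and binding proteins that meets at the cleavage of C3, and it is started by antibody through C1, by sugar-binding lectins, or by the alternative pathway. The liver makes most of both, and their genes are known as acute phase genes that interleukin-6 (IL-6) raises there. Kidney tubule cells and other cell types are also known to make C3, Cfb and fibrinogen chains.

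None of the 8 genes passed the test between the groups, and 3.12% of the 29115 features tested did, or 2.14% of those with a gene symbol. C3 stood nearest to it: its signal was lower on every chlorothalonil array than on any corn oil array, with a difference of -0.25 on the log2 scale. The difference of Cfi was -0.26 and that of Cfb 0.61, with groups that overlapped. The 3 fibrinogen chains differed more between animals of the same group than between the groups. Levels are log2 of the processed signal minus the array's own 75th percentile, so a level of 0 is the signal at that percentile, and differences are chlorothalonil minus corn oil. The test was limma's, with Benjamini-Hochberg adjustment over the 29115 features and a threshold of 0.05.

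The 3 corn oil arrays lay on 1 slide and the 3 chlorothalonil arrays on another, so that slide and treatment cannot be told apart in any value below. The labels of chlorothalonil replicate 3 disagree with each other: its source name states ethylenediamine dihydrochloride, whereas its title, treatment and dose state chlorothalonil. It is counted with the chlorothalonil arrays here, and each gene's difference is also given without it where that moved it. Between 62.1% and 67.8% of probes per array were well above background. All 10 proximal tubule markers were detected well above background on each of the 6 arrays, with mean levels of 6.93 to 7.11, as the labelled tissue would have.

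RefSeq (assembly GRCr8) gave promoters for 5 of the 8 genes, and 4 are shown here, because the chains of fibrinogen are encoded side by side and because C3 was the gene whose groups did not overlap. Each sequence is the 250 bases before the transcription start, read 5′ to 3′ on the gene's strand, with motif matches in capitals. Fga (the upstream of its 2 start sites) lies at chr2:170671919-170672168 on the plus strand, Fgb at chr2:170700876-170701125 on the minus strand, Fgg at chr2:170652833-170653082 on the plus strand, and C3 at chr9:2201340-2201589 on the minus strand.
Fga: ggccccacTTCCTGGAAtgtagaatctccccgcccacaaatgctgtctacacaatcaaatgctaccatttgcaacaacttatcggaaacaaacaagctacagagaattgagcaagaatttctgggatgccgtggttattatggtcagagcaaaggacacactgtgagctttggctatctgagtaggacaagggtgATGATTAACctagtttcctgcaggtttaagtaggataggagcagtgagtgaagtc
Fgb: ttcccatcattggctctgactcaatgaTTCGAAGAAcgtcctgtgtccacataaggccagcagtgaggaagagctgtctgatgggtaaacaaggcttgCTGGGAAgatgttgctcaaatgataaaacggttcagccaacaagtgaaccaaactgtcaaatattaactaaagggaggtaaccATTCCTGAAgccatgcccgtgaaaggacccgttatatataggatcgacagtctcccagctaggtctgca
Fgg: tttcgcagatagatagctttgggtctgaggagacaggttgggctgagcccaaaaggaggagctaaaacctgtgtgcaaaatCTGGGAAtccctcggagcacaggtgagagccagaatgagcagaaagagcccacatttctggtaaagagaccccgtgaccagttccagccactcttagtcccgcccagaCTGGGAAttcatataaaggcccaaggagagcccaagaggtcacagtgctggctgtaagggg
C3: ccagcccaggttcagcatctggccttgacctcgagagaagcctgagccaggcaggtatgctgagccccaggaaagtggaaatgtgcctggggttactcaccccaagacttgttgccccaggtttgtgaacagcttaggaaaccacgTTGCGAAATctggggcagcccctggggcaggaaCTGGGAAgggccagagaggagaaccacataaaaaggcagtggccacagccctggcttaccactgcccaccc

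The motifs were searched on both strands over 300 bases, the 250 shown and the first 50 of the transcript. They were GTTAATNAT for the liver factor HNF1, TTNNGNAAT for C/EBP, TTCNNNGAA for STAT3, CTGGGAA for the IL-6 response element, GGANTTTCC for NF-kB and TGACNNNGC for the antioxidant response element that NRF2 binds. Fga held the HNF1 motif at -55 to -47 from its start, a motif that 0.747% of the 33469 promoters of this length hold. It also held the STAT3 motif at -242 to -234, which 8.87% of promoters hold. Fgb held STAT3 at -223 to -215, the IL-6 element at -152 to -146 and C/EBP at -69 to -61, with another C/EBP match at 22 to 30 within the transcript. Fgg held the IL-6 element at -169 to -163 and again at -61 to -55. C3 held C/EBP at -104 to -96 and the IL-6 element at -71 to -65. Of all promoters, 12.3% held the C/EBP motif and 11.3% the IL-6 element. The promoter of Cfi, at chr2:221063066-221063315 on the plus strand, held no match to any of the 6 motifs. No match overlapped another, and a match says only that the letters are there. The NF-kB motif (1.28% of promoters) and the antioxidant motif (12.1%) were found in none of the 5 genes.

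Fga, the alpha chain, measured 0.48, 0.88 and 0.33 on corn oil replicates 1 to 3 and 0.82, 0.49 and 0.03 on chlorothalonil replicates 1 to 3. The groups overlapped, and the lowest array was chlorothalonil replicate 3. The difference was -0.12 ± 0.24 (SE, n = 3 per group; 95% interval -0.70 to 0.47), with an adjusted p of 0.833 from limma. It rested on single animals: without corn oil replicate 2 the difference was 0.04, and without chlorothalonil replicate 3 it was 0.09.

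Fgb, the beta chain, measured -0.46, 0.29 and -0.14 with corn oil and -0.10, 0.63 and -0.26 with chlorothalonil on its brighter probe. Replicate 2 was the highest array of each group, and the groups overlapped. The second Fgb probe gave -1.43, -0.58 and -1.03 with corn oil and -0.91, -0.31 and -1.2 with chlorothalonil, with the arrays of each group in the same order. The difference was 0.19 ± 0.29 (SE; 95% interval -0.53 to 0.91; adjusted p 0.766) on the first probe and 0.20 ± 0.30 (adjusted p 0.762) on the second. Without chlorothalonil replicate 2 the first became -0.08, and without corn oil replicate 1 it was 0.01. Without chlorothalonil replicate 3 it was 0.37.

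Fgg, the gamma chain, was dim and varied most. It was well above background on 2 of 3 corn oil arrays and on all 3 chlorothalonil arrays, and both of its probes entered the test through the chlorothalonil group alone. The brighter probe measured -5.77 (not well above background), -3.36 and -2.37 with corn oil and -3.87, -2.24 and -4.62 with chlorothalonil. The other probe measured -5.87, -3.71 and -3.85 with corn oil and -4.17, -2.58 and -4.54 with chlorothalonil. On both probes corn oil replicate 1 was lowest and chlorothalonil replicate 2 highest, and the groups overlapped. The difference was 0.26 ± 1.01 (SE; 95% interval -2.23 to 2.76; adjusted p 0.916) on the first probe and 0.72 ± 0.76 (adjusted p 0.661) on the second. The first took the other sign, -0.71 when corn oil replicate 1 was left out and -0.40 when chlorothalonil replicate 2 was, and it was 0.78 without chlorothalonil replicate 3.

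**Figure D1:**
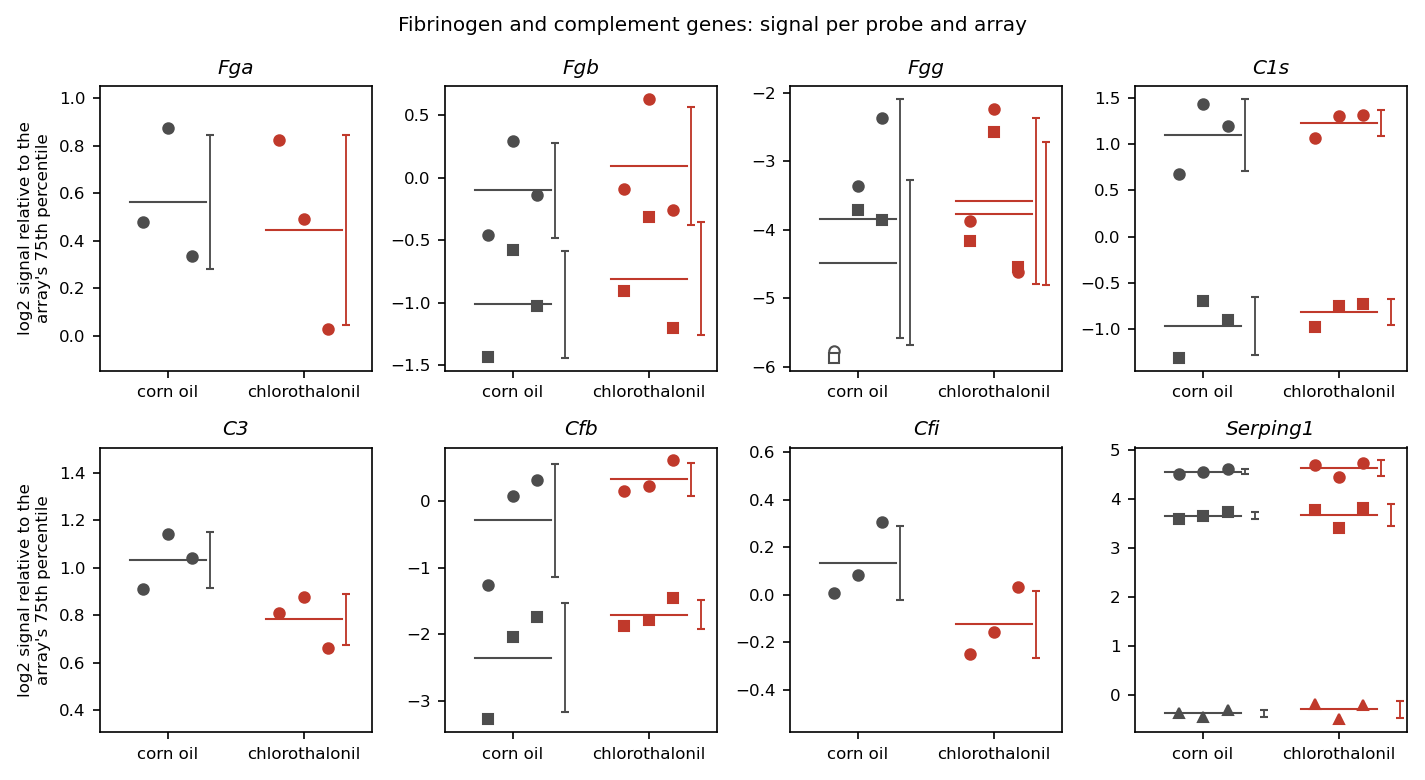
Signal of every probe of the 8 genes on each array, as log2 relative to the array's 75th percentile, with corn oil in grey and chlorothalonil in red and replicates 1 to 3 from left to right. Marker shapes are different probes, open symbols are probes not well above background, horizontal lines are group means and vertical bars 1 SD (n = 3), and each panel has its own vertical scale. The C3 groups do not overlap, Cfb is low on corn oil replicate 1, and Fgg spans 3.53 over the 6 arrays.

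The spread of the fibrinogen chains within the groups was large for this array. The pooled standard deviation within groups was 0.35 for Fga, 0.43 for Fgb and 1.5 for Fgg, against a median of 0.13 over all features. A smaller spread was found for 87.0%, 91.5% and 99.7% of features, in that order. Dim probes vary more, but against the tenth of features of similar level the spread was smaller for 94.0%, 95.8% and 99.2% of them. Cfb had a pooled standard deviation of 0.62 (96.4% of features were smaller), C1s 0.29 (82.5%), Cfi 0.15 (55.7%), Serping1 0.12 (45.2%) and C3 0.11 (41.8%).

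C1s encodes the protease of the C1 complex that cleaves C4 and C2 in the classical pathway. Its brighter probe measured 0.67, 1.43 and 1.2 with corn oil and 1.06, 1.30 and 1.31 with chlorothalonil. Corn oil replicate 1 was the lowest array, and the groups overlapped. The difference was 0.13 ± 0.20 (SE; 95% interval -0.38 to 0.63; adjusted p 0.782), and the other probe gave 0.15 ± 0.17. The difference was -0.09 without corn oil replicate 1. It was 0.08 when chlorothalonil replicate 3 was left out.

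C3, the component on which the 3 pathways meet, measured 0.91, 1.14 and 1.04 with corn oil and 0.81, 0.88 and 0.66 with chlorothalonil. All 3 chlorothalonil arrays lay below all 3 corn oil arrays, with a gap between the nearest arrays that was smaller than either group's own range. The difference was -0.25 ± 0.09 (SE; 95% interval -0.48 to -0.02), or 0.841 of the corn oil signal. The unadjusted p was 0.0376 and the adjusted p 0.221 in limma's fit, so C3 did not pass. It was 1 of 8 genes with an unadjusted p under 0.05, against 19.7% of all features, and 1 of 8 whose groups did not overlap, against 27.7% (14% in the lower direction). The difference kept its sign in all 16 other settings, between -0.31 and -0.19, with adjusted p-values of 0.169 to 0.409. Without chlorothalonil replicate 3, the lowest array, it was -0.19.

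Cfb encodes factor B, the protease of the alternative pathway's C3 convertase. Its brighter probe measured -1.26, 0.07 and 0.30 with corn oil and 0.14, 0.22 and 0.60 with chlorothalonil. Corn oil replicate 1 lay far below the other 5 arrays, which shared a range from 0.07 to 0.60. The second probe showed the same array apart, at -3.27 against -2.04 and -1.74 with corn oil and -1.87, -1.78 and -1.46 with chlorothalonil. The difference was 0.61 ± 0.42 (SE; 95% interval -0.43 to 1.66), or 1.53-fold, with an adjusted p of 0.478. Without corn oil replicate 1 it was 0.13 and without corn oil replicate 3 it was 0.91, the lowest and the highest with an array left out; without chlorothalonil replicate 3 it was 0.47.

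Cfi encodes factor I, the protease that inactivates C3b and C4b with the help of cofactors. It measured 0.01, 0.08 and 0.31 with corn oil and -0.25, -0.16 and 0.03 with chlorothalonil. The highest chlorothalonil array lay above the lowest corn oil array, so the groups overlapped. The difference was -0.26 ± 0.11 (SE; 95% interval -0.54 to 0.02), or 0.837 of the corn oil signal, with an unadjusted p of 0.0659 and an adjusted p of 0.289. It lay between -0.34 and -0.17 in the 16 other settings and was -0.34 without chlorothalonil replicate 3.

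Serping1 encodes the C1 inhibitor, a serpin that blocks C1r and C1s and also factor XII and kallikrein of the contact system. It measured 4.51, 4.55 and 4.61 with corn oil and 4.70, 4.44 and 4.74 with chlorothalonil on its brightest probe. Chlorothalonil replicate 2 was the lowest array and the other chlorothalonil arrays the highest. The difference was 0.07 ± 0.10 (SE; 95% interval -0.17 to 0.31; adjusted p 0.739). The other probes gave 0.01 and 0.08, and with an array left out the brightest gave 0.01 (without chlorothalonil replicate 3) to 0.16 (without chlorothalonil replicate 2; adjusted p 0.382). Of the 8 genes, Serping1 had the narrowest range over the 6 arrays, 0.30, and Fgg the widest.

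**Figure D2:**
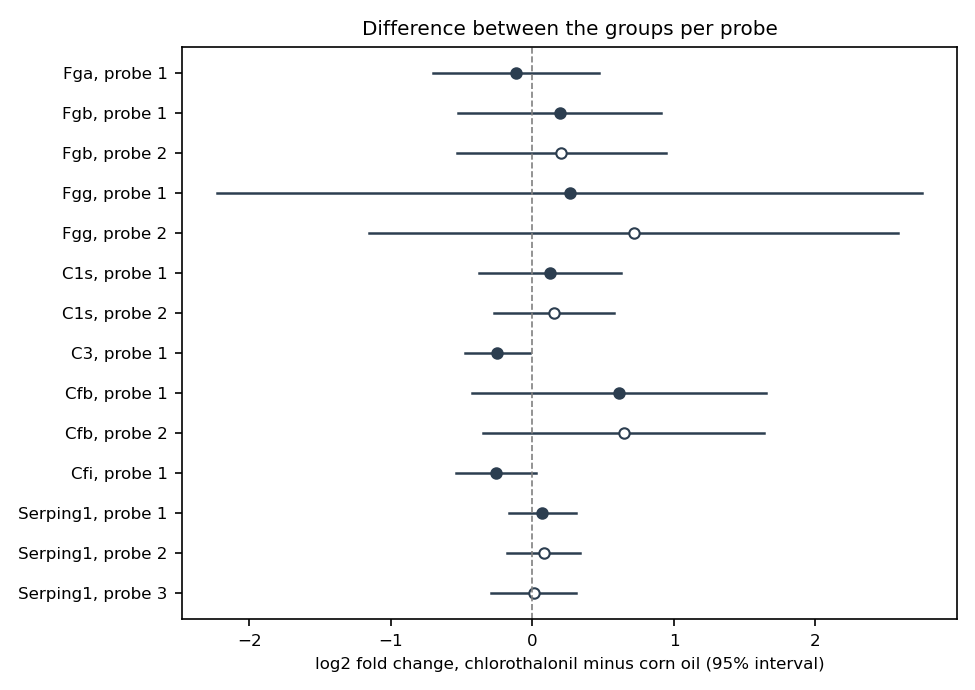
Difference between the groups for every probe of the 8 genes, as log2 fold change, chlorothalonil minus corn oil, with 95% confidence intervals from limma (n = 3 per group), filled for the brightest probe of a gene and open for its others. Only the interval of C3, from -0.48 to -0.02, leaves out 0, and the 2 probes of Fgg have the widest intervals.

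Of the 8 genes, 5 had a difference above 0 and 3 below, and 50.8% of all features lay above 0. Of the 14 probes, 11 had a difference above 0 and 3 below. Probes of the same gene shared their sign, and the 3 genes below 0 had 1 probe each, so the probes are not separate counts. None of the 14 passed the test, against 2.67% of the 39862 probes kept, and 1 had an unadjusted p under 0.05, against 19.2%. The groups did not overlap on 1 of the 14, the C3 probe, against 27.1% of probes. The median difference over the 8 genes was 0.10, beside 0.004 over all features. The intervals set what these arrays could show: they reach from -0.43 to 1.66 for Cfb and from -2.23 to 2.76 for Fgg, but only from -0.17 to 0.31 for Serping1.

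Whether the chains of fibrinogen varied together was examined over the 6 arrays, since the 3 genes neighbour each other on chromosome 2. Fgb and Fgg had the highest correlation among the chains, with Pearson's r of 0.761 (exact permutation p 0.075) and Spearman's rho of 0.829 (p 0.0583), and r within groups was 0.765. With the 2 arrays farthest from the median of Fgb left out, r was 0.846. The r of Fga was 0.364 with Fgb (exact permutation p 0.469; rho 0.657, p 0.175) and 0.145 with Fgg (p 0.765; rho 0.257, p 0.658). Over all 28 pairs of the 8 genes the smallest adjusted p was 0.906 for r and 0.833 for rho, so no pair passed. C1s and Cfb had an r of 0.856 (exact permutation p 0.0806; rho 0.371, p 0.497), which was -0.42 without the 2 farthest arrays and so rested on them.

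The genes most like each chain over the 6 arrays were taken from 11317 other named genes for Fga and Fgb and 11318 for Fgg, by Pearson's r, as a description with no test. For Fga they were Bysl (0.984), Mtss2 (0.980) and Pnmt (0.972). For Fgb they were Rarg (0.980), Tmem216 (0.978) and Zfp830 (0.974). For Fgg they were Inhca (0.976), Saa4 (0.967), which encodes a serum amyloid A of lipoproteins, and Oas2 (0.964), an interferon-induced antiviral enzyme. The candidates are many and the arrays few, and the best match of each of the 8 genes had an r of 0.976 to 0.996.

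The array that was low for Fgg was also low for some, and not for other, genes whose main source is the liver. Alb, the gene of albumin, measured -4.91 on corn oil replicate 1 and 2.00 and 1.49 on the other corn oil arrays, with 0.93, 2.32 and 0.40 with chlorothalonil. Ttr, which encodes transthyretin, measured -5.64, 1.15 and 0.92 with corn oil and 0.28, 1.55 and -0.27 with chlorothalonil. Among acute phase genes, Hp, which encodes haptoglobin, measured -3.28, -0.52 and -0.62 with corn oil and -1.03, 0.29 and -1.07 with chlorothalonil. On corn oil replicate 1 Ttr, like Fgg, was not well above background. Alb, Ttr and Hp were each lowest on corn oil replicate 1 and highest on chlorothalonil replicate 2, as Fgg was. Serpina1, the alpha-1-antitrypsin gene, was not well above background there either. Of the other measured hepatocyte markers, Apob stood at -1.09 on corn oil replicate 1 relative to the median of the other 5 arrays, Apoh at -0.82, Apoa1 at -0.77 and Ahsg at -0.28, whereas Hrg stood at 0.11, Fetub at 0.20 and Apoc3 at 0.25. By the same measure Cfb stood at -1.48, C1s at -0.63 and Fgb at -0.37, whereas Fga, C3, Cfi and Serping1 stood between -0.10 and 0.03. These are values of each gene's brightest probe, and the 3 probes of Ahsg had group differences from 0.08 to 1.38. Apart from Ttr, the hepatocyte and acute phase genes in these sentences were named after their values were seen.

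Of 13 hepatocyte markers with a probe, 8 were detected well above background on every array, whereas Tat and Tdo2 were on none. The mean level of the 9 measured was -1.73, 0.44 and -0.14 with corn oil and -0.25, 0.53 and -0.38 with chlorothalonil. Their summed signal, as a multiple of each array's 75th percentile, ran from 14.1 to 25.1 with corn oil and from 13.2 to 25.7 with chlorothalonil. Corn oil replicate 1 was the lowest array for 6 of the 9, for 10 of 16 acute phase genes, for 6 of 6 fibroblast markers and for 4 of the 8 genes described here (Fgb, Fgg, C1s and Cfb), against 16.7% of all features. This did not hold for every list: it was lowest for 0 of 10 proximal tubule, 0 of 10 podocyte and endothelial and 0 of 4 platelet markers. The count was 2 of 8 for distal tubule and collecting duct markers. It was 5 of 12 for macrophage and myeloid markers and 2 of 4 for red blood cell genes. Among the lists of complement, clotting, acute phase and IL-6 genes it ran from 0 of 2 (terminal pathway) to 6 of 7 (classical pathway). Over the 6 arrays the hepatocyte mean had an r of 0.862 with Fgb (exact permutation p 0.0292; rho 0.943, p 0.0167), 0.854 with Fgg (p 0.0181; rho 0.943, p 0.0167) and 0.253 with Fga (p 0.636; rho 0.486, p 0.356). Corn oil replicate 1 and chlorothalonil replicate 2 were the 2 arrays farthest from the median of the hepatocyte mean. Without them r was 0.981 for Fgb and 0.387 for Fgg, so that the relation of Fgg rested on those arrays. For each list below, the 2 arrays left out were likewise those farthest from the median of that list's own mean. For the fibroblast and the macrophage mean they were corn oil replicate 1 and chlorothalonil replicate 3. The mean of fibroblast markers (1.38, 2.10 and 1.95 with corn oil, 1.94, 2.04 and 2.30 with chlorothalonil) had an r of 0.919 with C1s (exact permutation p 0.0194; rho 0.943, p 0.0167; 0.951 without the 2 arrays) and 0.954 with Cfb (p 0.0264; rho 0.6, p 0.242; -0.568 without them). The lists did not separate these genes: C1s had an r of 0.915 with the hepatocyte mean (exact permutation p 0.0292; rho 0.543, p 0.297; 0.645 without the 2 arrays), and 0.884 with the mean of macrophage and myeloid markers (p 0.0236; rho 0.886, p 0.0333; 0.538 without them). Cfb had an r of 0.774 with the hepatocyte mean (exact permutation p 0.151; rho 0.143, p 0.803; -0.714 without them) and 0.874 with the macrophage mean (p 0.0347; rho 0.657, p 0.175; 0.004 without them). Over the 64 relations between the 8 genes and 8 cell type lists the smallest adjusted p was 0.311 for r and 0.356 for rho, so none passed. The part of other cells in the values of Fgb, Fgg, C1s and Cfb was not tested, and in a bulk sample fewer cells of a type and less RNA per cell cannot be told apart.

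**Figure D3:**
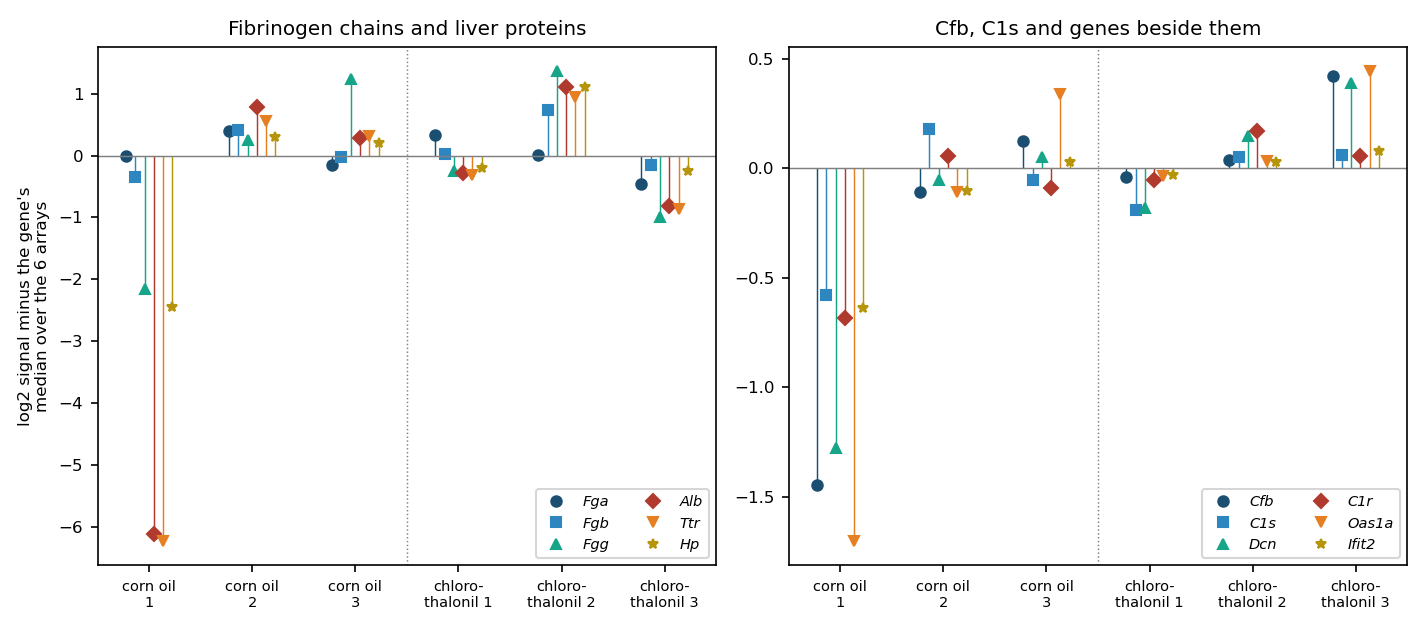
Signal of the fibrinogen chains (left) and of Cfb and C1s (right) on each array beside genes of similar pattern chosen after their values were seen, as log2 minus the gene's median over the 6 arrays, with corn oil replicates 1 to 3 before the dotted line and chlorothalonil replicates 1 to 3 after it. Fgg, Alb, Ttr and Hp share corn oil replicate 1 as their lowest array, as do Cfb, C1s, Dcn, C1r, Oas1a and Ifit2, whereas the lowest array of Fga is chlorothalonil replicate 3.

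Around the 8 genes, 12 lists of complement, clotting, acute phase and IL-6 genes held 126 other genes, of which 92 were measured. Of these 92, 2 rose (Serpine2 and Pim1) and 1 fell (C8b), against 1.30% and 1.82% of all features, and 13 (14.1%) had an unadjusted p under 0.05, against 19.7%. Their median difference was 0.08. These lists were chosen with earlier results of the same arrays known.

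In the classical pathway 0 of 7 measured genes passed, with 0 at an unadjusted p under 0.05. C1r, the protease that activates C1s, was 0.30 ± 0.20 higher (adjusted p 0.471), and like C1s it was lowest on corn oil replicate 1, at 1.12 against 1.71 to 1.97 on the others. C4a, which encodes a C4 component with a near-identical neighbour, had a difference of -0.22 ± 0.14 (adjusted p 0.441). In the lectin pathway 0 of 5 passed, and the smallest p were those of Masp2, a protease that cleaves C4 and C2 (0.81 ± 0.20, adjusted p 0.106, well above background on 2 of 3 corn oil arrays and so tested only through the chlorothalonil group, where it was higher), and Mbl1, a mannose-binding lectin (0.43 ± 0.30, adjusted p 0.486). Of the 4 genes of C3 and the alternative pathway, which include C3 and Cfb, 0 passed. Cfp, the gene of properdin that stabilises the C3 convertase, measured -1.36, -1.02 and -1.13 with corn oil and -1.42, -1.43 and -1.41 with chlorothalonil, a difference of -0.25 ± 0.10 (unadjusted p 0.0494, adjusted p 0.252). The groups of Cfp did not overlap, which was so in the lower direction for 14% of features. Cfd, the gene of factor D that cleaves factor B, completes the 4, with a difference of -0.60 ± 0.38 (adjusted p 0.439) and groups that overlapped; it was named after its values were seen.

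In the terminal pathway C8b, the beta chain of C8 in the membrane attack complex, was the 1 of 2 measured genes to pass. It measured -2.62, -2.55 and -2.68 with corn oil and -2.93, -3.06 and -3.06 with chlorothalonil, and the groups did not overlap. The difference was -0.40 ± 0.07 (adjusted p 0.0476), near the threshold, and it did not pass in 11 of 16 other settings, where the adjusted p reached 0.156. Without chlorothalonil replicate 3 the difference of C8b was -0.38 (adjusted p 0.137 in limma's fit). Among 10 regulators, with Cfi and Serping1, 0 passed, and Cd59b, of the CD59 family that blocks the membrane attack complex, was 0.31 ± 0.07 higher (adjusted p 0.0889). Of 5 complement receptors 0 passed. C3ar1, the receptor of the C3a fragment, had a difference of -0.27 ± 0.16 (adjusted p 0.418), and Cd93 0.20 ± 0.14 (adjusted p 0.466).

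Among fibrinogen and 9 other measured clotting factors 0 of 12 passed. Klkb1, which encodes plasma prekallikrein, measured -4.08, -2.44 and -3.53 with corn oil and -1.90, -2.26 and -2.16 with chlorothalonil. Its groups did not overlap, but with this spread the difference of 1.24 ± 0.41 had an adjusted p of 0.183. Fgl2, a fibrinogen-like protein, was 0.28 ± 0.09 higher (adjusted p 0.183). Of 7 clotting inhibitors 0 passed: Serpinc1, the gene of antithrombin, was 0.41 ± 0.08 higher (adjusted p 0.0716) and Pros1, the gene of protein S, stood at -0.52 ± 0.14 (adjusted p 0.130).

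In fibrinolysis, the breakdown of fibrin by plasmin, 1 of 9 rose. Serpine2, an inhibitor of thrombin and of plasminogen activators, measured -2.51, -2.49 and -2.31 with corn oil and -1.93, -1.86 and -1.97 with chlorothalonil, a rise of 0.52 ± 0.08 (adjusted p 0.0369). Its other probe gave 1.01, and the mean of both probes gave 0.76 ± 0.19 (adjusted p 0.105 in limma's fit). The direction of Serpine2 held in the 16 other settings and it did not pass in 9 of them, where the adjusted p reached 0.144. Without chlorothalonil replicate 3 the difference was 0.54 (adjusted p 0.0982 in limma's fit). Of 5 receptors that bind fibrinogen or fibrin 0 passed, with Cdh5 at 0.17 ± 0.09 and Icam1 at -0.23 ± 0.12.

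Of 16 acute phase genes 0 passed, and 13 of 16 had a difference above 0, beside 50.8% of all features, with a median of 0.22. Of these 16, 10 were lowest on corn oil replicate 1, and Serpina1 and Itih3 entered through the chlorothalonil group alone. The smallest p was that of Apcs, the gene of serum amyloid P, at 5.18, 5.04 and 5.21 with corn oil and 4.83, 4.67 and 4.72 with chlorothalonil, a difference of -0.40 ± 0.08 (adjusted p 0.0643). Lrg1 was 0.27 ± 0.12 higher (adjusted p 0.275), whereas its other probe gave -0.03. Of 19 genes of IL-6 family signalling 1 rose: Pim1, a STAT-induced kinase, measured -4.59, -4.33 and -4.33 with corn oil and -3.67, -3.85 and -3.45 with chlorothalonil, a rise of 0.76 ± 0.13 (adjusted p 0.0458). Its other probe gave 0.05, the mean of both probes gave 0.40, and it did not pass in 11 of 16 other settings. After normexp on the median spot signal the difference of Pim1 was only 0.05 (adjusted p 0.737 in limma's fit). Without chlorothalonil replicate 3 the difference of Pim1 was 0.65 (adjusted p 0.112 in limma's fit). Socs3, the feedback inhibitor of STAT3 that IL-6 raises, had a difference of 0.32, and its other probe gave 0.63. Stat3 had a difference of -0.24, whereas its other probe gave 0.32, so its probes disagreed in sign. Neither gene passed the threshold, and Il6 was well above background on no array. Socs3, Stat3 and Il6 were named after their values were seen.

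**Figure D4:**
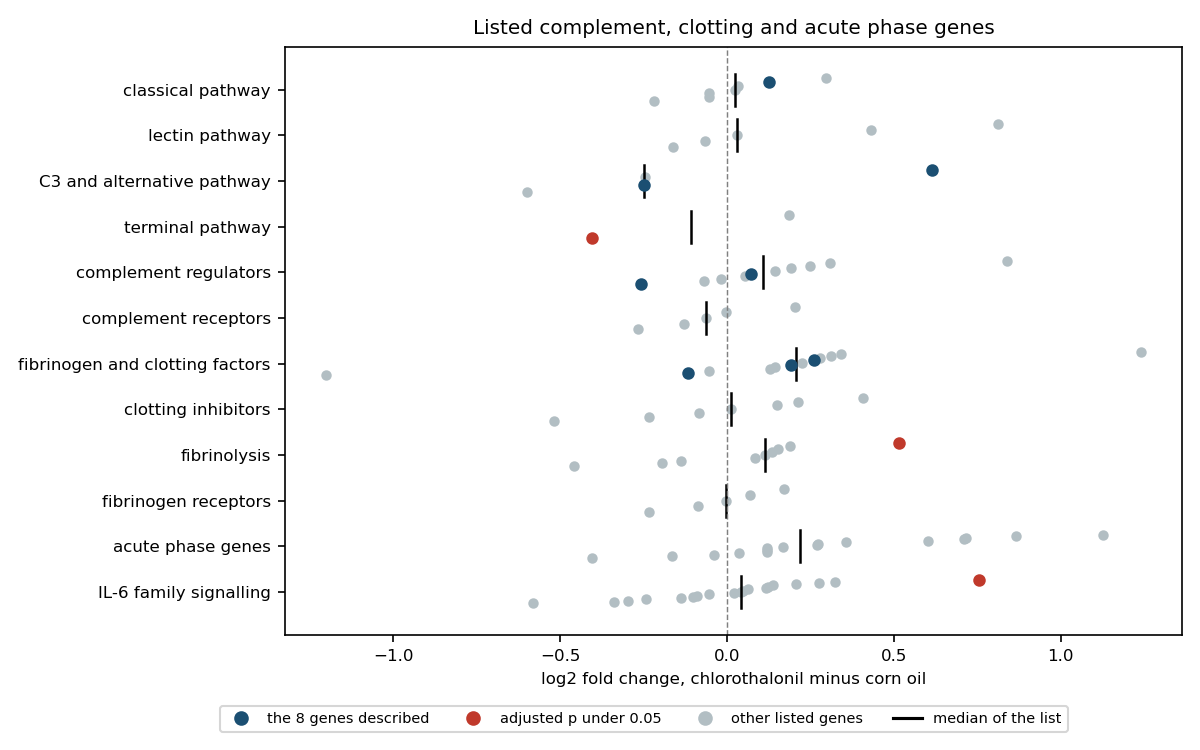
Difference between the groups for each measured gene of the 12 lists, as log2 fold change, chlorothalonil minus corn oil, with the 8 genes in blue, genes past an adjusted p of 0.05 in red and list medians as black lines. The red points are C8b (-0.40), Serpine2 (0.52) and Pim1 (0.76).

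Markers of other cells were compared between the groups in the same fit. Of 12 macrophage and myeloid markers 0 passed, and Adgre1, which encodes the F4/80 antigen, had a difference of -0.47 ± 0.12 (adjusted p 0.123). Adgre1 did not stand for its list, in which 6 genes lay above 0 and 6 below, with a median of -0.03. Of 9 hepatocyte, 4 platelet, 10 podocyte and endothelial, 8 distal tubule and collecting duct, 6 fibroblast and 4 red blood cell genes 0 passed. The smallest p in these lists were those of Ttr (1.71 ± 1.89, tested only through the chlorothalonil group), Treml1 (0.27), Cdh5 (0.17), Calb1 (-0.56), Col3a1 (0.44) and Slc25a37 (0.45). Calb1 went against most of the distal tubule and collecting duct list, in which 6 of 8 genes lay above 0, with a median of 0.12. The 4 red blood cell genes had an unadjusted p under 0.05, against 19.7% of all features, with differences of 0.24 to 0.45.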

How the data were processed

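Total RNA of 6 renal cortex samples, 3 per group, was hybridised as Cy3-labelled cRNA to Agilent 1-colour arrays. The authors deposited each spot's intensity on a linear scale, extracted with Agilent Feature Extraction 10.7, per the submitters' processing notes, and background-subtracted, per the file headers. Their deposited value table holds a ratio to 1 constant per array near its 75th percentile, a scaling found from the data; its column medians were 0.107, 0.109 and 0.112 with corn oil and 0.105, 0.105 and 0.106 with chlorothalonil, and it was used as an alternative.

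For the values here each processed signal was taken as log2 and its array's 75th percentile over noncontrol probes subtracted. A probe needed to be well above background on every array of either group, with a value on 2 or more arrays in each (39862 probes). Of 61537 probes, 28206 were named through RefSeq accessions, and the brightest kept probe stood for a gene, which left 29115 features. The test was limma's (version 3.58.1, R 4.3.3) without covariates, and the script was tested on simulated data. The alternatives were other normalizations, filters, probe rules and variance priors, a replicate block and each array left out. Normexp had been planned on the mean spot signal and used the median spot signal instead, with an offset of 50. The mean signal was not analysed here, and a slide block could not be fitted. The number of arrays limits the precision.

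From each list of complement, clotting, acute phase and IL-6 genes the text names genes past the threshold, or the 2 with the smallest p where none passed, from each cell type list the 1 with the smallest p, and for each fibrinogen chain the 3 most alike genes. A result that this rule takes is not reported here. The 8 genes and the lists were chosen with earlier results of these data known.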

Additional observations from a re-analysis of the deposited data

How the results depend on the processing

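None of the 8 genes passed the threshold in any of 16 other settings, and none of the 14 probes in 15, with 0 to 2 at an unadjusted p under 0.05. C3, Cfi, Cfb and Serping1 kept their sign throughout. With single arrays left out, C1s ranged from -0.0875 (corn oil replicate 1) to 0.291, Fga from -0.305 to 0.0935 (chlorothalonil replicate 3; 0.040 leaving out corn oil replicate 2), Fgb from -0.0761 (chlorothalonil replicate 2) to 0.389, and Fgg from -0.706 (corn oil replicate 1; -0.404 leaving out chlorothalonil replicate 2) to 0.994, so each took the other sign in at least 1 of these fits. Fgg did not enter when a probe had to be well above background on all 6 arrays.

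Among all features 909 passed (378 higher and 531 lower). Scaling to the array median gave 435 higher and 368 lower. With no filter on dim probes 172 passed among 45432, and leaving out 1 array at a time gave 112 (without chlorothalonil replicate 1) to 388. Of the listed genes 3 passed, 7 after normexp on the median spot signal, 0 with no filter on dim probes, and 0 to 1 with an array left out. With fewer arrays the counts fell; the cause of the other shifts was not tested.

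With the replicate number as a replicate block 0 features passed in limma (5271 at an unadjusted p under 0.05) and 0 listed genes (15 at an unadjusted p under 0.05). Same-numbered samples had correlations of deviations of 0.095, 0.018 and 0.051, and differently numbered samples had -0.090 to 0.053. With so few arrays these values do not decide whether the numbers pair the animals, and the numbers were not used as pairs.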

Other observations

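Among genes outside the lists, those most like Cfb over the 6 arrays were Oas1a (r 0.994), Armc6 (0.992) and Ifit2 (0.990), of 11317 named genes, a comparison made after the values were seen. Oas1a, an interferon-induced antiviral enzyme, measured -0.36, 1.23 and 1.68 with corn oil and 1.31, 1.38 and 1.79 with chlorothalonil. Ifit2, also interferon-induced, measured -1.93, -1.39 and -1.26 with corn oil and -1.32, -1.26 and -1.21 with chlorothalonil. Both had their lowest value on corn oil replicate 1, as Cfb did. The matrix gene Dcn, a fibroblast marker, measured 1.41, 2.63 and 2.74 with corn oil and 2.5, 2.83 and 3.07 with chlorothalonil. Of the clotting genes, F12 on corn oil replicate 2 stood at 1.11, with the other 5 arrays between -4.71 and -2.87.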
